A study of Homo sapiens with 6 samples.

Results

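Long intergenic noncoding RNAs were followed in MDA-MB-231 cells, a widely used human cell line from a triple-negative breast tumour. The members were all rows of the expression table named LINC and a number whose mean over the 6 libraries reached 1 TPM (a length-corrected share of a library, scaled so that all genes sum to 1000000), which gave 131 of 1869 such rows and of 58051 genes in all. The members were thus chosen by their level over both groups together. Wild-type cells had been exposed to human recombinant FABP4, a small fatty acid carrier, carrying a FITC tag, and were sorted by flow cytometry into FABP4 binding cells (3 libraries) and FABP4 non-binding cells (3 libraries). No group was left unstained or unsorted, so both groups share the exposure and the sort. All cells are named as 1 line, though markers of epidermal keratinocytes were high in both groups (values below). Nothing in the labels tells if the 3 libraries per group stem from different cultures or different sorts. The p-values therefore reflect the spread among these libraries alone, which may be technical. In bulk RNA, fewer cells of a type and less RNA per cell cannot be told apart.

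Long intergenic noncoding RNAs are transcripts without a known protein product whose genes lie apart from protein-coding genes. They are transcribed and often spliced like messenger RNAs, are mostly far less abundant, and many stay in the nucleus, where the RNA exosome degrades a large part of them. Some act on chromatin or on a neighbouring gene, some bind proteins or microRNAs in the cytoplasm, and for most no function is known. LINC names are placeholders given to such genes until a function is described.

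LINC02211 had the largest ratio of group means in TPM among the higher members past the threshold. LINC00261 lies beside FOXA2 and was higher together with it. LINC00339 was among the most abundant members, and LINC01623 was lower in the binding cells. The promoters of these 4 members are shown because the RNAs carry the results below. Each runs from 250 bases before to 50 bases after the start that RefSeq gives (GRCh38.p14), 5′ to 3′ on the strand of the gene, at chr5:25190703-25191002 (plus strand), chr20:22578593-22578892 (minus strand), chr1:22024941-22025240 (plus strand) and chr6:28863628-28863927 (minus strand). Capitals mark matches, on either strand, to the TATA box TATAAA, the AP-1 pattern TGANTCA, the antioxidant response element core TGACNNNGC, the GC box GGGCGG or the CCAAT box.
LINC02211: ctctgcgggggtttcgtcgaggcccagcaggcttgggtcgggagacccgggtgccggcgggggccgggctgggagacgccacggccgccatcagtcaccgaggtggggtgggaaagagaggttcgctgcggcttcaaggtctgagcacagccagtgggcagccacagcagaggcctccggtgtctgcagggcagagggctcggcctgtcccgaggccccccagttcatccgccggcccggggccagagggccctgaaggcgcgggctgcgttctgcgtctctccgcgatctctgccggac
LINC00261: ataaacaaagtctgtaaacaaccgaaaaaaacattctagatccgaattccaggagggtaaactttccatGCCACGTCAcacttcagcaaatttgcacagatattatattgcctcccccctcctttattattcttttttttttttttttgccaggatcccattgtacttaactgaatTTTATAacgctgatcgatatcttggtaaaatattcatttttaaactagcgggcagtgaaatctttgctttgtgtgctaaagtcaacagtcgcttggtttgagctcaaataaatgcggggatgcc
LINC00339: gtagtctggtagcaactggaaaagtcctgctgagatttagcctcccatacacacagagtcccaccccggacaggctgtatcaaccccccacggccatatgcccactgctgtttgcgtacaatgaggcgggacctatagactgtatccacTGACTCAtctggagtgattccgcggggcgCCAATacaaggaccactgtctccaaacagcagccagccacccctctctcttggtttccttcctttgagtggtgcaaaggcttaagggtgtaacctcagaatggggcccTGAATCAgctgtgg
LINC01623: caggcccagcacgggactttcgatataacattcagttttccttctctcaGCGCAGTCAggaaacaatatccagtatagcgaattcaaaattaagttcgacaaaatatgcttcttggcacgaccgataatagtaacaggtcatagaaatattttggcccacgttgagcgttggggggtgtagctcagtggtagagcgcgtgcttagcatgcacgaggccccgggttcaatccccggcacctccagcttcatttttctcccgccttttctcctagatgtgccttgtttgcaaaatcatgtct

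The LINC02211 window held none of the 5 motifs and was 72.0% G and C, while that of LINC00261, at 37.0% G and C, held a TATA box and an antioxidant response element core. The LINC00339 window held a CCAAT box and 2 matches to the AP-1 pattern TGANTCA, namely TGACTCA and, after the start, TGAATCA. The element bound by FOS and JUN proteins has C or G as its middle base, so the pattern is looser and TGAATCA falls outside that element. Of the 131 members, 101 matched a RefSeq promoter. This loose AP-1 pattern was found in 13 of these 101 (12.9%) and in 7.76% of 27305 promoters of all genes. It was found in 1 of the 11 matched members that were higher in binding cells. The antioxidant response element core was found in 20 (19.8%), against 13.6% of all promoters, and in 2 of the 11. The TATA box was found in 15 (14.9%), against 11.95%, and in 5 of the 11. The GC box and the CCAAT box were found in 52.5% and 39.6% of member promoters, against 44.6% and 35.7% of all. A match is a description of these letters and not a binding site.

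The name was checked against the GENCODE release 29 annotation, in which 129 of the members were found. The annotation typed 103 as lincRNA, 9 as processed transcripts, 7 as antisense, 7 as transcribed pseudogenes (5 unprocessed and 2 unitary), 2 as RNAs of a bidirectional promoter and 1 as sense-overlapping. Of the 129, 55 overlapped no other annotated gene, 62 overlapped a gene on the opposite strand and 31 a gene on their own strand, and 18 overlapped a protein-coding gene. The word intergenic therefore does not hold for every member, and since strand use in counting is not stated, reads of such overlapping genes cannot be told apart. The nearest protein-coding gene lay at a median distance of 19.6 kb. The median member had 4 exons and 1931 bases of exon, and 14 members had 1 exon. The genes were spread over 22 chromosomes, with 14 on chromosome 1 and 12 on chromosome 5. For 19 members the current symbol is another name, 7 of them marking a divergent transcript of a coding gene, such as SLC12A2-DT for LINC01184, and LINC01578 is now CHASERR, known as a repressor of its neighbour CHD2.

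The members were low. Their median was 2.35 TPM, against 13.3 TPM for the 12050 protein-coding genes tested, with 11 members at 10 TPM or more, 31 at 5 or more and 51 under 2. The values of a gene stood in whole-number steps across libraries, which gave the reads behind them for 113 members and the ratio of those reads for the other 18. The median was 4 reads per member in a non-binding library and 10 in a binding library, and 88 of the 113 had under 100 reads over all 6 libraries together. The same steps gave 3649078 to 4062553 gene reads in the non-binding libraries and 5379428 to 6752830 in the binding libraries, so depth moved with the group, and its part in the results was not tested. Intervals from such reads would cover counting error only.

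**Figure D1:**
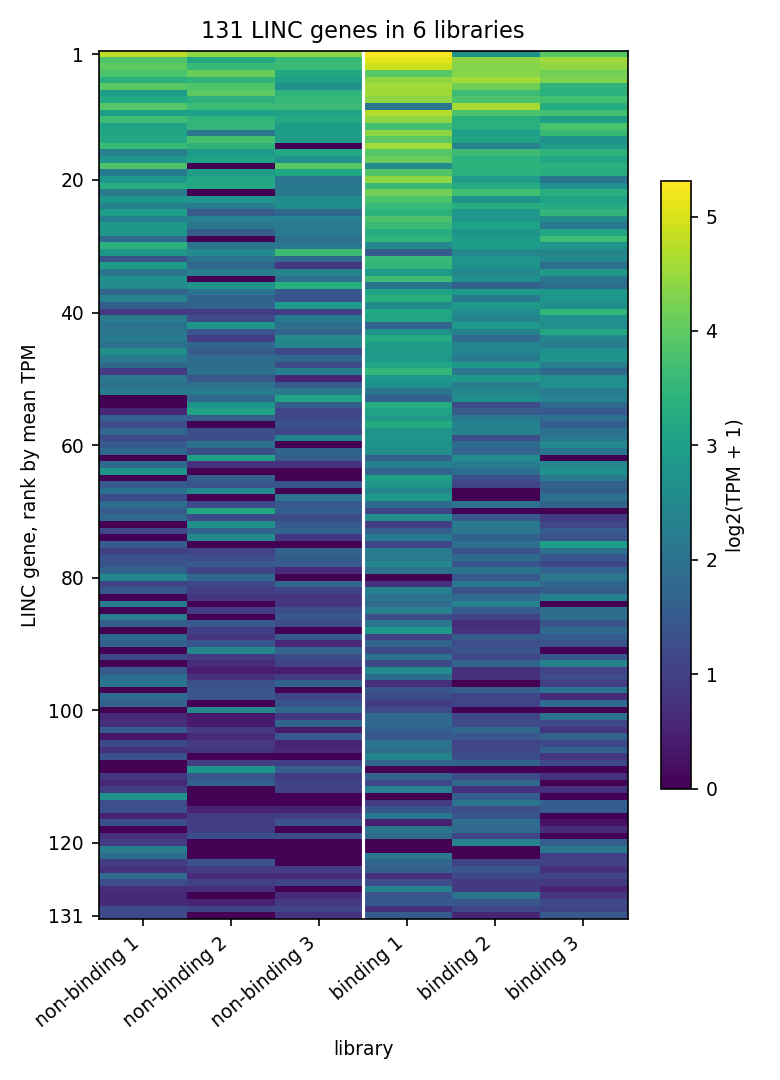
Level of the 131 LINC genes, as log2(TPM + 1), with 1 row per gene ordered by mean TPM and 1 column per library. Binding replicate 1 is the brightest column, with a median of 4.09 TPM against 1.69 to 2.91 in the other libraries, and dark cells, mostly in the lower part, are genes listed at 0.

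At the top of the order stood LINC00973, at 26.6, 20.7 and 20.2 TPM in the non-binding libraries and 38.7, 5.57 and 14.3 TPM in the binding libraries. It was both the highest and one of the most scattered of the abundant members, since the binding libraries lay on either side of all 3 non-binding ones. LINC01806 followed at 13.4, 8.36 and 11.1 TPM in non-binding and 33.0, 19.8 and 22.02 TPM in binding libraries, and LINC00339 at 14.6, 10.8 and 11.4 against 28.9, 19.1 and 20.6 TPM. In both, every binding library lay above every non-binding one. LINC00674, a transcribed pseudogene in the annotation, reached 17.0 ± 2.65 TPM in the binding group, against 12.7 ± 4.05 TPM (SD, n = 3 each), with overlapping groups. LINC01116 averaged 20.6 ± 2.17 against 8.84 ± 1.70 TPM, LINC00460 16.5 ± 6.42 against 11.1 ± 5.03, LINC00888 14.4 ± 6.94 against 10.4 ± 3.95, and LINC01578 15.2 ± 4.80 against 9.62 ± 1.18 (SD, n = 3 each). Neighbours in this order lay closer together than the libraries of each gene.

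The comparison asked how cells that bind FABP4 differ from cells that do not. By limma on log2(TPM + 1) over the 15574 genes that reached 1 TPM in 3 or more libraries, 119 members were tested, 16 were higher in the binding cells, 2 were lower and 101 did not pass a Benjamini-Hochberg adjusted p of 0.05. That is 13.4% of tested members higher and 1.68% lower, beside 19.6% higher and 7.12% lower among all genes tested (percent called), so neither share stood above that of all genes. The 12 untested members each fell under the filter, and 11 of them were listed at 0 in at least 1 library. The median log2 change of tested members was 0.57, beside 0.36 for all tested genes and 0.43 for tested protein-coding genes, and 99 of the 119 changes were positive (83.2%, beside 68.1% of all tested genes). The groups did not overlap in 35 members with binding higher (29.4%, beside 38.6% of all tested genes) and 4 with binding lower (3.36%, beside 13.6%). A mean over all libraries can be reached through 1 group, and 29 members had only their binding mean at 1 TPM or more and 8 only their non-binding mean, so these counts describe the members and support nothing.

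**Figure D2:**
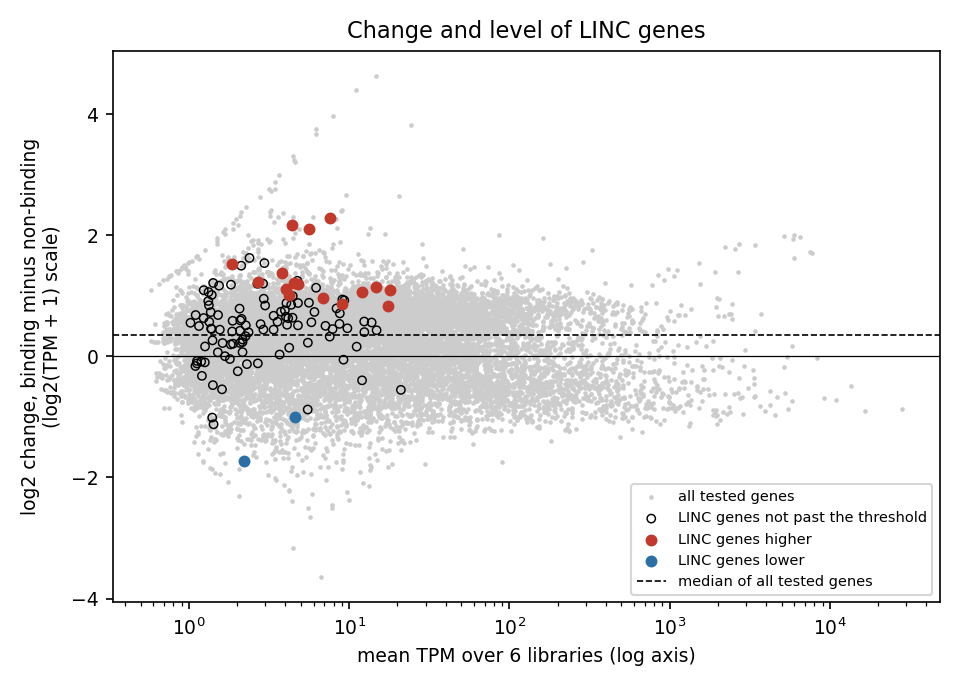
Log2 change on the log2(TPM + 1) scale (vertical) against mean TPM (horizontal, log axis) for all 15574 tested genes (grey), with the 119 tested LINC genes over them and the median of all genes, 0.36, as a dashed line. The 16 higher LINC genes lie between 0.84 and 2.28, and most LINC genes crowd at the low end of the TPM axis.

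The share past the threshold moved with level. Between 5 and 25 TPM, 8 of 31 tested members were higher (25.8%), beside 25.3% of 4859 protein-coding genes in that range. Between 2 and 5 TPM it was 7 of 49 (14.3%, beside 9.40%), and between 1 and 2 TPM 1 of 39 (2.56%, beside 1.41%). Both lower members were among the 49 between 2 and 5 TPM, where 1.02% of coding genes were lower. No member was lower between 1 and 2 or between 5 and 25 TPM, beside 0.283% and 1.67% of coding genes. The spread between libraries of a group was wider for members than for coding genes at the same level, with a median within-group SD on the log2 scale of 0.55 between 5 and 25 TPM, beside 0.26, and of 0.54 between 1 and 2 TPM, beside 0.33. The members' exons were also shorter, 1931 bases at the median beside 5484 for coding genes in the same TPM range, which leaves fewer reads for the same TPM.

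The number of calls changed when single libraries were left out. Such a fit also has fewer libraries from which to estimate spread, and this was not told apart from the part of the library itself. Without non-binding replicate 3, none of the 119 members passed by limma (28 had an unadjusted p under 0.05, and 15 of the 18 lay under an adjusted p of 0.1), and over all genes 58 were then higher and 6 lower (0.372% and 0.0385%). Without non-binding replicate 2, 4 members were higher (3.36% of those tested) and 0 lower, beside 1.80% and 0.514% of all genes. In that fit 36 members had an unadjusted p under 0.05 by limma. All 18 kept their sign in each fit that left out a library, which is a weak check since the fits share most libraries. When every library was shifted to a shared median, 6 members were higher and 3 lower (5.04% and 2.52%, beside 6.18% and 12.1% of all genes). Higher genes made up 73.3% of all calls, 33.7% with the shared median, 49.0% after quantile normalization and 84.5% when rescaled without mitochondrial genes.

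**Figure D3:**
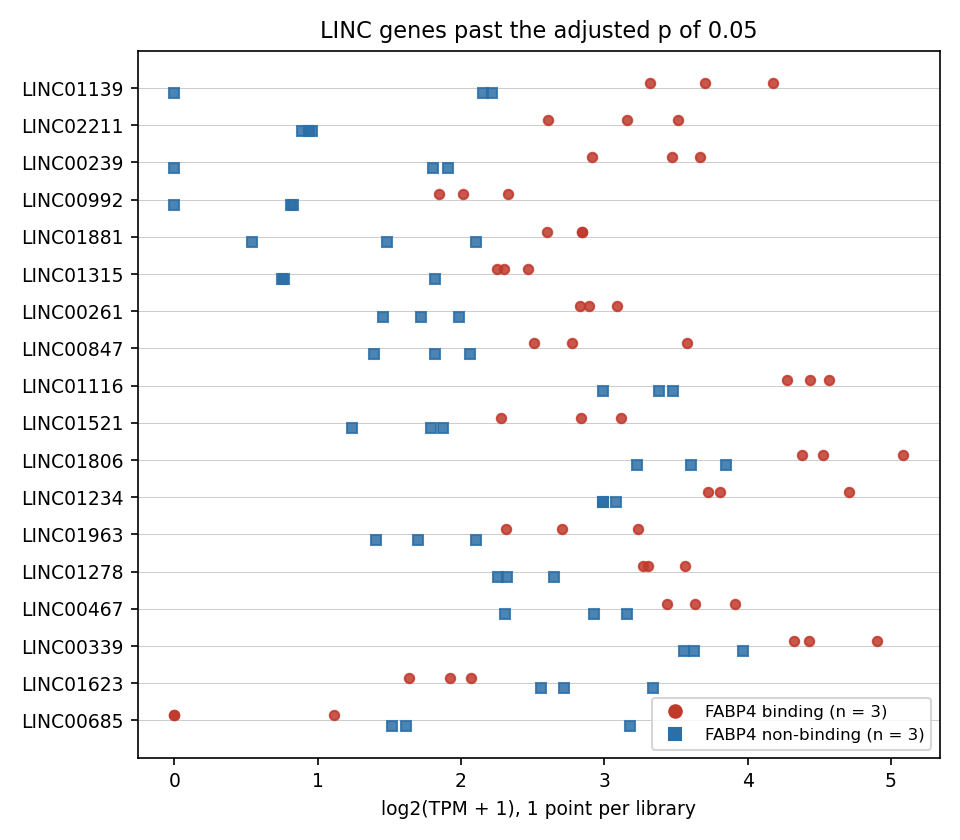
Log2(TPM + 1) in each library (1 point per library, circles for binding and squares for non-binding) for the 18 LINC genes past the adjusted p of 0.05, ordered by log2 change. The 16 upper rows have every circle to the right of every square, and LINC01623 and LINC00685 at the bottom have every circle to the left.

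LINC02211 (ENSG00000245662, chromosome 5, 25187800 to 25324386, hg38, 13 annotated exons, plus strand) was at 0.853, 0.922 and 0.942 TPM in the non-binding libraries and 7.94, 5.09 and 10.4 TPM in the binding libraries. The binding mean was 8.64 times the non-binding mean, a log2 change of 2.16, or 1.81 above the median of all genes (SE 0.29; adjusted p by limma = 0.00996). The non-binding values stood for 1 read each if the smallest whole-number ratio is taken, against 15, 8 and 17 in binding replicates 1, 2 and 3, so the fold rests on a floor of very few reads. LINC02211 met the filter of 1 TPM in 3 libraries only through the binding libraries, so its call is no independent support. The call was lost in 1 of 13 alternatives, that without non-binding replicate 3, where the adjusted p was 0.0517 (range over 13 alternatives 0.00746 to 0.0517). Its nearest coding gene, CDH10, was listed at 0 in all 6 libraries.

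LINC01139, also called LINK-A and described as a cytoplasmic RNA that binds kinases in triple-negative breast cancer, was at 3.64, 0 and 3.45 TPM in non-binding and 17.1, 12.02 and 8.98 TPM in binding libraries. All 3 binding libraries lay well above the others. The log2 change was 2.28 (SE 0.57; adjusted p by limma = 0.0284), a call lost in 7 of 13 alternatives, among them those that left out binding replicate 1, binding replicate 2 or non-binding replicate 3. LINC00239 was at 2.501, 0 and 2.76 TPM in non-binding and 10.1, 6.53 and 11.7 TPM in binding libraries, from 2, 0 and 2 reads against 13, 7 and 13. Its log2 change was 2.11 (SE 0.51; adjusted p by limma = 0.0258), lost in 7 of 14 alternatives, among them without binding replicate 1, binding replicate 3, non-binding replicate 2 or non-binding replicate 3. LINC00992 was at 0, 0.755 and 0.772 TPM in non-binding and 3.04, 2.60 and 4.02 TPM in binding libraries, from 0, 1 and 1 reads against 7, 5 and 8, and its call was lost in 5 of 14 alternatives, among them without binding replicate 3, non-binding replicate 2 or non-binding replicate 3. LINC00992 too met the filter only through the binding libraries. These 3 RNAs shared a level near or at 0 in part of the non-binding libraries, where the log2(TPM + 1) scale understates a change.

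LINC00261 (ENSG00000259974, chromosome 20, 22547671 to 22578642, hg38), an endoderm-associated RNA known to act on its neighbour FOXA2, was at 2.30, 2.96 and 1.75 TPM in non-binding and 7.51, 6.44 and 6.11 TPM in binding libraries, from 16, 19 and 11 reads against 84, 60 and 59. The binding mean of 6.69 ± 0.730 TPM was 2.86 times the non-binding mean of 2.34 ± 0.605 TPM (SD, n = 3 each), and the log2 change was 1.22 (SE 0.24; adjusted p by limma = 0.0171). The call held in 13 of 14 alternatives and was lost without non-binding replicate 3 (adjusted p = 0.0579 by limma with Benjamini-Hochberg adjustment). FOXA2, a forkhead transcription factor gene that lies 2.36 kb away on the same strand, stood at 42.1 ± 9.05 TPM in the binding group, against 17.1 ± 2.58 TPM (SD, n = 3 each). The FOXA2 log2 change was 1.24 (adjusted p by limma = 0.0131), so the RNA and its neighbour were higher together.

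LINC01116 (ENSG00000163364, chromosome 2, 176629589 to 176637931, hg38) was at 9.41, 10.2 and 6.93 TPM in non-binding and 20.6, 22.7 and 18.4 TPM in binding libraries, from 21, 21 and 14 reads against 74, 68 and 57. Its log2 change was 1.14 (SE 0.20; adjusted p by limma = 0.0139), and the call held in 13 of 14 alternatives, being lost without non-binding replicate 3 (adjusted p = 0.0554 by limma with Benjamini-Hochberg adjustment). Its nearest coding gene, MTX2, a mitochondrial outer membrane protein, was 292 kb away and did not pass, with a log2 change of -0.30. LINC01806 changed by 1.10 (SE 0.25; adjusted p by limma = 0.0222), LINC00339 by 0.84 and LINC01234 by 1.06. LINC01234 was tight in the non-binding libraries, at 6.95, 6.94 and 7.48 TPM, and ranged from 12.2 to 25.1 TPM in the binding libraries. LINC01278, which overlaps the coding gene SPIN4 on the same strand, was at 4.01, 3.79 and 5.26 against 10.8, 8.87 and 8.66 TPM, while SPIN4 itself changed by 0.99 and did not pass (adjusted p by limma = 0.0534). LINC01806 lost its call without non-binding replicate 2 or 3, LINC01278 without non-binding replicate 1, 2 or 3, and LINC01234 and LINC00339 each in 6 alternatives.

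The other 6 higher members lay between 0.86 and 1.38 on the log2 scale. LINC01881 was at 3.31, 1.79 and 0.457 TPM in non-binding and 6.17, 6.17 and 5.06 TPM in binding libraries, and LINC01315 at 2.52, 0.682 and 0.697 against 3.92, 3.76 and 4.54 TPM. In both, the binding libraries lay close together and the non-binding ones far apart. LINC00847 averaged 7.15 ± 3.32 against 2.44 ± 0.774 TPM, LINC00467 11.8 ± 2.14 against 6.17 ± 2.03 TPM, LINC01963 5.97 ± 2.25 against 2.40 ± 0.837 TPM and LINC01521 5.88 ± 1.92 against 2.17 ± 0.703 TPM (SD, n = 3 each). LINC01963 lies 10.7 kb from XRCC5, the larger subunit of the Ku protein of DNA end joining, which was also higher, at 144 ± 31.8 against 88.9 ± 10.9 TPM (adjusted p by limma = 0.0322). LINC01521 starts 545 bases from PATZ1 on the other strand, and PATZ1 did not pass, with a log2 change of 0.19. These calls are marginal, and that of LINC00467 was lost in 10 of 14 alternatives, including without any 1 of the 6 libraries. LINC01963 and LINC01521 lost theirs without any 1 of 5 libraries (all but binding replicate 2 for LINC01963 and all but binding replicate 3 for LINC01521), LINC01881 and LINC01315 without any 1 of all but non-binding replicate 1, and LINC00847 without any 1 of all but binding replicate 3.

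Of the 2 lower members, LINC00685 rested on very few reads. LINC01623 (ENSG00000225595, chromosome 6, 28859625 to 28864630, hg38) was at 4.90, 5.58 and 9.12 TPM in non-binding and 3.20, 2.12 and 2.78 TPM in binding libraries, from 19, 20 and 32 reads against 20, 11 and 15. The log2 change was -0.995, or -1.35 relative to the median of all genes (SE 0.28; adjusted p by limma = 0.0361), and the call was lost without any 1 of the 6 libraries. TRIM27, a ubiquitin ligase gene 38.4 kb away on the same strand, was also lower, at 51.9 ± 10.05 against 81.4 ± 5.52 TPM (SD, n = 3 each; adjusted p by limma = 0.0310). LINC00685 was at 1.87, 8.08 and 2.06 TPM in non-binding and 1.16, 0 and 0 TPM in binding libraries. These values stood for 1, 4 and 1 reads against 1, 0 and 0. Of the binding libraries only replicate 1 reached 1 TPM. LINC00685 thus met the filter of 1 TPM in 3 libraries through the non-binding group, and is no independent support. Its call (log2 change -1.74; adjusted p by limma = 0.0461) was lost in 11 of 14 alternatives, and its nearest coding gene GTPBP6 was higher with a log2 change of 0.70. Of 10 markers of epidermal keratinocytes, 7 were lower and none higher, beside 7.12% lower and 19.6% higher among all tested genes. Their summed level was 3126 to 4487 TPM in non-binding and 1308 to 2431 TPM in binding libraries. None of the markers was at 0 in every library. In each non-binding library their sum stood above that of the mesenchymal markers of the line (1232 to 1257 TPM). In the binding libraries it did so in replicates 2 and 3 and not in replicate 1. The source of these keratinocyte transcripts and their part in the lower calls were not tested.

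**Figure D4:**
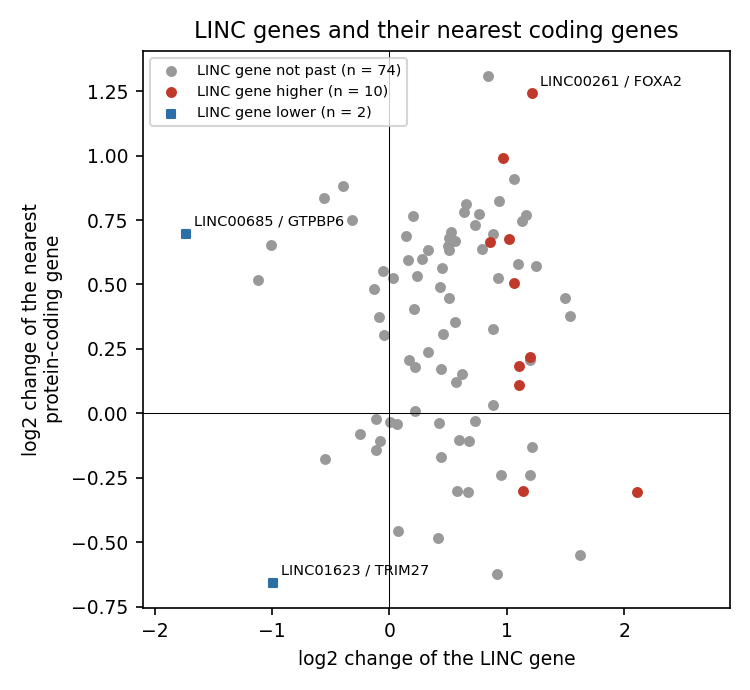
Log2 change of the nearest protein-coding gene (vertical) against that of the LINC gene (horizontal) for the 86 pairs in which both were tested. The points show no common slope (Pearson r -0.02). LINC00261 and FOXA2 lie at the upper right, LINC01623 and TRIM27 at the lower left, and LINC00685 and GTPBP6 at the upper left.

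The changes of members and of their nearest coding genes showed no correlation in size. The few reads and wide spread of the members limit what such a correlation can show. Across the 86 pairs that were both tested, Pearson's r of the log2 changes was -0.02 and Spearman's rho 0.02, as a description over genes that share the same 6 libraries. Of the 10 higher members with a tested neighbour, 2 neighbours were higher (FOXA2 and XRCC5) and none lower. Beside the 2 lower members, 1 neighbour was lower (TRIM27) and 1 higher (GTPBP6). Of the 74 members that did not pass, 12 neighbours were higher and 3 lower. Among all tested genes, 19.6% were higher and 7.12% lower. The median neighbour changed by 0.36 beside the higher members and by 0.43 beside those that did not pass.

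Added up, the 131 members took 454, 410 and 373 TPM in non-binding replicates 1, 2 and 3 and 877, 570 and 557 TPM in binding replicates 1, 2 and 3. The binding mean was 1.62 times the non-binding mean, and 1.37 times without binding replicate 1. Binding replicate 1 held the highest value of 73 members (55.7%), and also of 49.4% of all tested genes. Without it 8 members were higher and 1 was lower (6.72% and 0.84%, beside 12.7% and 5.70% of all genes). The median log2 change of members was then 0.36, beside 0.26 for all genes. All 1869 LINC rows together made up 0.0451% to 0.0539% of TPM in non-binding and 0.0646% to 0.102% in binding libraries.

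**Figure D5:**
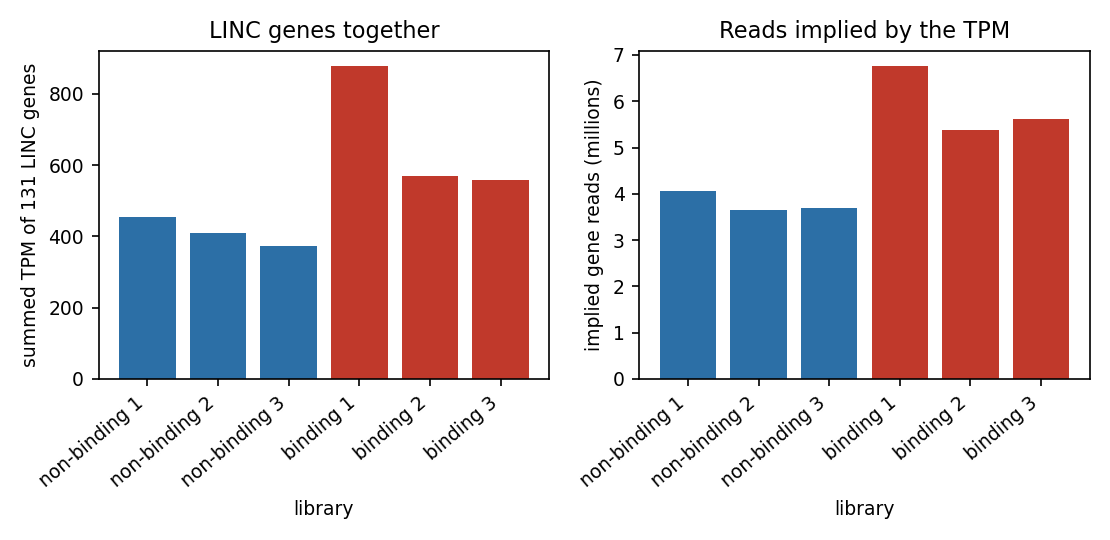
Summed TPM of the 131 LINC genes (left, bars from 0) and the gene reads implied by the TPM steps (right, bars from 0, in units of 1000000 reads) in each library, blue for non-binding and red for binding. Both are highest in binding replicate 1, at 877 TPM and 6752830 reads, and all 3 binding bars stand above all 3 non-binding bars in each panel.

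Long noncoding RNAs that carry names of their own were listed for comparison, 47 in all, of which 23 were tested. In the list 5 were higher (21.7%, beside 19.6% of all tested genes) and 1 was lower (4.35%, beside 7.12%). NORAD, which sequesters Pumilio proteins, stood at 128 ± 8.09 TPM in the binding group, against 71.6 ± 15.98 TPM (SD, n = 3 each), with a log2 change of 0.85. GAS5, a host of small nucleolar RNAs, averaged 188 ± 50.7 against 103 ± 7.62 TPM, and TUG1 34.3 ± 11.04 against 17.1 ± 0.449 TPM. NEAT1, the scaffold of nuclear paraspeckles, was the lower one, at 19.2 ± 3.20 against 29.1 ± 0.270 TPM, and its log2 change was -0.58. These 4 had adjusted p of 0.0202, 0.0229, 0.0263 and 0.0377 (limma). The median log2 change of the 23 was 0.64, beside 0.36 for all genes. The number of higher genes in the list was 1 with the shared median and 2 without non-binding replicate 1 or binding replicate 3. It was 0 by limma without non-binding replicate 2 or non-binding replicate 3, where 9 and 10 of them had an unadjusted p under 0.05, and NEAT1 was not past the threshold in any of these 4 fits that left out a library.

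Genes of nuclear RNA decay, the exosome and the adaptors that bring it noncoding transcripts, were listed as well. Of 27 tested, 3 were higher and 3 lower (11.1% each way, beside 19.6% higher and 7.12% lower among all tested genes). EXOSC5, a core subunit of the exosome, stood at 129 ± 21.2 TPM in the binding group, against 70.7 ± 12.1 TPM, NCBP2 of the cap-binding complex 49.9 ± 8.85 against 31.4 ± 3.24 TPM, and RBM7 of the nuclear exosome targeting complex 3.93 ± 0.576 against 1.73 ± 0.410 TPM (SD, n = 3 each). The exonuclease gene XRN2 was lower at 399 ± 67.4 against 635 ± 27.0 TPM, as were PABPN1, which binds poly(A) tails in the nucleus, at 146 ± 15.8 against 232 ± 7.05 TPM, and the poly(A) polymerase gene PAPD5 at 25.8 ± 7.79 against 43.2 ± 0.503 TPM (SD, n = 3 each). The 3 higher genes had adjusted p of 0.0193, 0.0318 and 0.0422 and the 3 lower 0.0210, 0.0162 and 0.0424 (limma). The median log2 change of the list was 0.28, beside 0.36 for all genes. Without non-binding replicate 2 or non-binding replicate 3 none passed by limma, though 4 and 5 higher and 4 and 3 lower genes had an unadjusted p under 0.05. The counts were 2 higher and 1 lower without non-binding replicate 1, 1 higher and 2 lower without binding replicate 3, and 1 higher and 6 lower with the shared median.

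At the edge of the choice, LINC00887 (1.10 TPM over all libraries), LINC01410 (1.10) and LINC00471 (1.02) lay just inside, and LINC02035 (0.999), LINC01770 (0.973) and LINC01615 (0.916) just outside. The least even members were LINC00449, listed at 3.67 TPM in non-binding replicate 1, 3.30 TPM in binding replicate 3 and 0 elsewhere, LINC02085, LINC01714 and LINC02293. LINC02085 was at 0, 1.69 and 0 TPM in non-binding and 1.69, 2.03 and 3.08 TPM in binding libraries, short of the threshold (adjusted p by limma = 0.0783). With limma voom on the implied reads it passed, with a log2 change of 2.44 (adjusted p = 0.0393 by limma). LINC01714 was at 0, 0.910 and 0 against 3.13, 2.51 and 0.605 TPM, and LINC02293 at 0.937, 0 and 0 against 0, 4.19 and 2.02 TPM, both under the filter. In all 47 members were listed at 0 in at least 1 library.

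Markers of the line were checked once, beside the epidermal keratinocyte markers given above. All 6 mesenchymal markers were tested, and their summed level was 1232 to 1257 TPM in non-binding and 1609 to 1851 TPM in binding libraries. Of these, 3 were higher (AXL, CAV1 and CD44) and 0 lower, beside 19.6% and 7.12% of all tested genes. VIM, which made up most of the sum at 821 to 981 TPM, did not pass, nor did MMP14 and ZEB1. Luminal markers summed to 322 to 353 and 616 to 716 TPM, with ESR1 at 0 in every library. Of 6 tested, 3 were higher (KRT8, KRT18 and KRT19) and 0 lower, while GATA3, FOXA1 and EPCAM did not pass. Leukocyte markers summed to 17.4 to 32.0 TPM, fibroblast markers to 23.3 to 60.7, endothelial markers to 1.23 to 3.75 and adipocyte markers to 7.33 to 17.0 over all 6 libraries, with LEP and ADIPOQ at 0.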

How the data were processed

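Total RNA of sorted cells was depleted of ribosomal RNA, fragmented and randomly primed, per the labels' protocols. The values the authors deposited are TPM, as each of the 6 columns sums to 1000000. The submitters' processing notes name the build hg38, while aligner, counting tool, strand use and annotation are not given in the sources at hand. Columns were matched to samples by names in the labels. Members and lists were chosen with earlier results of these data known. Genes that reached 1 TPM in 3 or more libraries entered limma 3.58.1 (R 4.3.3), fitted to log2(TPM + 1) without covariates and with its variance prior following mean level. P-values were adjusted by Benjamini-Hochberg over all tested genes and called at 0.05. A change on this scale understates that of low genes. GENCODE release 29 gave types, positions and exon lengths for 99.0% of rows, and RefSeq gave promoters.

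TPM times exon length came in whole steps in each library: 94.7% to 95.0% of values under 50 steps lay within 0.05 of a whole number, so a step was taken as 1 read. Where the release 29 length gave no whole numbers, the smallest whole-number ratio was used. Tested on simulated data for this comparison with 15574 genes, 152 of 200 genes changed 2-fold (76.0%) and all 200 changed 4-fold were recovered. There were 6 and 7 false calls, and none when nothing changed. The simulated spread followed the trend of all genes with level and did not model reads. Members were more scattered than coding genes at the same level, so these rates may not hold for them. Named members were all those past the threshold, the 8 most abundant, those at the edge of the choice and the 4 most variable, with the nearest coding gene of called members. Named list genes were the 3 smallest p in each direction. Alternatives were other filters, a pseudocount of 0.1, 3 other scalings, a replicate block, each library left out and, chosen after seeing the data, limma voom on the implied reads.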

Additional observations from a re-analysis of the deposited data

How the results depend on the processing

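All 18 called members kept their sign in every alternative that tested them. With the shared median, 6 members were higher, and over all genes 962 were higher and 1890 lower (33.7% higher, against 73.3%), while 1 other named noncoding RNA was higher and 1 decay gene higher and 6 lower. With quantile normalization these were 6 members higher and 2 lower, 1197 genes higher (49.0% of calls), 2 other noncoding RNAs, and 1 decay gene higher and 5 lower. Without a filter, 6 members were higher and 0 lower, 1373 genes higher and 500 lower, 2 other noncoding RNAs higher and 0 lower, and 1 decay gene higher. Here 41 members had an unadjusted p under 0.05 by limma. With a mean of at least 1 TPM as filter, or a pseudocount of 0.1, 1 member was lower. Rescaled without the mitochondrial genome, 24 members were higher (20.2%, beside 28.98% of all tested genes, 4503 in all), 10 other noncoding RNAs were higher and 0 lower, and 6 decay genes higher. Voom on the implied reads, which tested 103 members, called 13 higher and 2 lower, and 5 decay genes higher. The median log2 change over all genes was 0.36, 0.039 with the shared median, 0.11 after quantiles were equalized and 0.45 when rescaled without mitochondrial genes.

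Leaving out 1 library at a time gave 0 to 14 members higher and 0 to 1 lower, 58 to 1975 genes higher and 6 to 888 lower, 0 to 5 other noncoding RNAs higher and 0 to 1 lower, and 0 to 2 decay genes higher and 0 to 3 lower. Every lowest count was reached without non-binding replicate 3, and some of the zeros also without other libraries. The cause was not tested. LINC00973, which passed in none, went from -0.55 to a range of -1.21 (without binding replicate 1) to 0.083 (without binding replicate 2). Deviations of same-numbered libraries from their group means correlated at 0.035, -0.017 and 0.028. With so few libraries per group, these values cannot decide if replicate numbers pair the samples. With the replicate block, 21 members were higher and 1 lower, and not every library correlated best with its own number. Few reads limit many members: 29 of 113 had under 20 over 6 libraries, while the deepest had 637.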

Other observations

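Among the 15 members whose start lies within 1000 bases of a coding gene's start on the opposite strand, 4 coding partners passed by limma (26.7%, the same share as among all tested genes). Of the 15 RNAs 1 passed, LINC01521. These pairs were chosen after their values were seen. FAM207A, beside LINC01547, changed by 1.31 (adjusted p = 0.0136 by limma) where the RNA changed by 0.84. POFUT2, a protein O-fucosyltransferase gene beside LINC00205, changed by 0.75 (adjusted p = 0.0269 by limma) and the RNA by 1.13. In the other 2 the signs were opposite: CNOT2, a subunit of the CCR4-NOT deadenylase, changed by -0.68 (adjusted p = 0.0344 by limma) and LINC01481 by 0.79, and TAF12, a subunit of the TFIID factor, by -0.46 (adjusted p = 0.0483 by limma) and LINC01715 by 0.07. None of these 4 RNAs passed, but LINC00205 did when rescaled without the mitochondrial genome, with the replicate block and without non-binding replicate 1.

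LINC01969 was the only member listed at 0 in all 3 binding libraries, at 0, 5.70 and 1.94 TPM in the non-binding libraries. LINC00302, which lies in the epidermal differentiation complex and was chosen after its values were seen, was at 13.2, 0 and 14.6 TPM in non-binding and 4.93, 9.86 and 9.52 TPM in binding libraries, short of the threshold (adjusted p by limma = 0.678).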
